A study of Mus musculus with 18 samples.

Results

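A set of 10 genes that had been proposed for NOD diabetes risk loci outside the major histocompatibility complex was followed through the lacrimal glands (LGs) of the *NOD.H-2b* mouse: *Ctla4*, *Il2ra*, *Il2*, *Il21*, *Slc11a1*, *Cd101*, *Ptpn22*, *Cd226*, *Vav3* and *Tnfrsf9*. They were picked by symbol among the 54232 genes of the count table, and all 10 were found there. The LG, which secretes the watery part of tears, was taken from males of NOD.B10Sn-H2b/J (*NOD.H-2b*), a model of Sjögren's syndrome, and of the control strain BALB/cJ (*BALB/c*). Each strain was sampled at 2, 4 and 6 months (2M, 4M and 6M), with 3 mice in each of the 6 groups and a single gland from a single mouse in each of the 18 libraries. *NOD.H-2b* mice carry the H2b haplotype on the NOD background and do not become diabetic. *BALB/c* is not the parent of *NOD.H-2b*, so strain background and gland disease cannot be told apart in any comparison between strains, and no diabetic NOD mouse was included.

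These genes act at a few connected steps of lymphocyte activation. IL-2 and IL-21 are cytokines made mainly by activated CD4+ T cells, their receptors share the common gamma chain, and IL-2 signals through the alpha chain encoded by *Il2ra* with high affinity, above all on regulatory T cells. CTLA-4 is an inhibitory receptor that competes with CD28 for the same ligands, while 4-1BB (*Tnfrsf9*) and CD226 are costimulatory receptors and CD101 is an inhibitory surface protein of T cells and myeloid cells. The phosphatase PTPN22 dampens antigen receptor signals, VAV3 is a guanine nucleotide exchange factor that acts downstream of antigen receptors, and SLC11A1 is a divalent metal transporter of the phagosome membrane in macrophages and neutrophils. In the LG of NOD-derived strains, autoimmunity is known for foci of T and B cells between the acini and ducts.

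All 10 are protein-coding genes, and their GRCm38 positions are those of GENCODE M21. *Il2* (chr3:37120523-37125959, minus strand) and *Il21* (chr3:37222759-37232636, minus strand) lie 96.8 kb apart, and *Cd101* (chr3:100993529-101029556, minus strand), *Ptpn22* (chr3:103859795-103912247, plus strand) and *Vav3* (chr3:109340653-109685698, plus strand) are on the same chromosome. *Ctla4* (chr1:60887000-60915832) and *Slc11a1* (chr1:74375195-74386062) share chromosome 1, *Il2ra* is at chr2:11642807-11693193 and *Tnfrsf9* at chr4:150914562-150946102, all on the plus strand. *Il21* shares exon bases with the antisense gene *Gm12534*, and since the strand setting of the counting is not stated, reads of this pair cannot be told apart with certainty. *Gm12534* itself held at most 4 counts in any mouse. The other genes that overlap *Ctla4*, *Il2ra*, *Il2*, *Ptpn22* and *Tnfrsf9* do so only outside their exons.

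The promoters of *Il2*, *Il21* and *Ctla4* are shown because these genes had no count in any *BALB/c* mouse at 2M or 6M, yet *Il21* and *Ctla4* reached as many as 156 and 78 counts in *NOD.H-2b* while *Il2* did not. Capitals mark the core of the site of NFAT, the calcium-driven factor of activated T cells, as GGAAAA or, on the other strand, TTTTCC. The sequences are from RefSeq on GRCm38.p6, surround each start site and run 5′ to 3′ along the gene.
Il2 (chr3:37125905-37126204, minus strand): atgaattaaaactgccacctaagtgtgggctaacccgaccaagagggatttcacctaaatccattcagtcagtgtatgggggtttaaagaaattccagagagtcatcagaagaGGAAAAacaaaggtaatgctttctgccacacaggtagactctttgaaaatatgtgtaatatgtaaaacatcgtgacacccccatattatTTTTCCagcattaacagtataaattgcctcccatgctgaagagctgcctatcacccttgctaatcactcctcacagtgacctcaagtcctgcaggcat
Il21 (chr3:37232587-37232886, minus strand): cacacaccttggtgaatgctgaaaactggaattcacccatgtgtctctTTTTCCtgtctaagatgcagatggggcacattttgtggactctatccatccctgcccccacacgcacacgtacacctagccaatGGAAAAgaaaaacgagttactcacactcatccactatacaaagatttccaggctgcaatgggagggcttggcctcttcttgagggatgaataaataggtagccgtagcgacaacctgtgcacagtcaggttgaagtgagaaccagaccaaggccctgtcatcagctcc
Ctla4 (chr1:60908775-60909074, plus strand): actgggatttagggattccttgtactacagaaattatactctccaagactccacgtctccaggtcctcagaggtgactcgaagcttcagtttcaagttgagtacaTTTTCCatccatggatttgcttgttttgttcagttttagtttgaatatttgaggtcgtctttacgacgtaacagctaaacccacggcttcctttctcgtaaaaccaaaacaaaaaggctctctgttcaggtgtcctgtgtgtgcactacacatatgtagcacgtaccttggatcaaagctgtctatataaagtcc
The window of *Il2* holds 2 such cores, that of *Il21* 2 and that of *Ctla4* 1, against 23.4% of 32851 mouse promoters of the same length with at least 1 on either strand. None of the 3 windows holds TGANTCA, the AP-1 motif, which 7.81% of promoters hold. The 10 windows of *Il2ra*, *Slc11a1*, *Cd101*, *Ptpn22*, *Vav3* and *Tnfrsf9* include 2 with the NFAT core, 1 of 3 for *Vav3* and 1 of 2 for *Tnfrsf9*, and 2 with the AP-1 motif, also in *Vav3* and *Tnfrsf9*. A match of these letters is a description and no evidence of binding.

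*Cd226* (chr18:89176967-89272229, plus strand) completes the set. Totals per mouse lay between 49480781 and 103936830 counts, and replicates differed by more than counting noise, with a chi-square per gene of 16.37 to 83.36 over 18 pairs of mice, so that no pair was counted as 1 sample. All 10 gland epithelium markers were found in every group, with a summed level of 831 to 1480 CPM, a unit in which counts are scaled to the size of each library. At 2M this sum was higher in *NOD.H-2b* (1280 to 1480 CPM) than in *BALB/c* (1190 to 1230 CPM). The single markers did not all follow the sum. By the thresholds given below, 0 of the 10 were called higher at 2M and 1 lower, *Elf5* (log2 fold change -1.05, SE 0.066), with a median of 0.26. It was lower in *NOD.H-2b* at 4M (940 to 1230 against 1310 to 1380 CPM) and at 6M (831 to 1000 against 1240 to 1300 CPM). Immune markers differed between strains and ages. The 7 T cell markers summed to 0.193 to 3.52 CPM in the 9 *BALB/c* mice and to 5.31 to 79.8 CPM in the 9 *NOD.H-2b* mice. The 7 B cell markers ranged from 0.0526 to 2.11 CPM against 0.891 to 384 CPM, the 8 macrophage markers from 57.5 to 149 CPM against 207 to 442 CPM and the 5 NK cell markers from 0.105 to 2.38 CPM against 2.62 to 8.62 CPM. With the ages pooled, the strains overlapped in plasma cell markers (222 to 474 against 236 to 845 CPM) and neutrophil markers (0 to 0.137 against 0.0308 to 0.709 CPM). Within each age the plasma cell sums were higher in *NOD.H-2b* without overlap. They were 222 to 227 against 236 to 323 CPM at 2M, 331 to 421 against 634 to 845 at 4M and 353 to 474 against 679 to 818 at 6M. The neutrophil sums overlapped at 2M only, and were 0.0186 to 0.101 against 0.32 to 0.709 CPM at 4M and 0.0209 to 0.137 against 0.247 to 0.562 CPM at 6M. No neutrophil marker had enough counts for a test between strains. In whole glands, more cells of a type and more RNA per cell cannot be told apart, and the part of cell content in the results that follow was not tested.

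At 2M, 7 of the 10 genes had enough counts for the test and 6 of them were called DEGs, all upregulated in *NOD.H-2b*, against 12.0% of all genes tested. A DEG had an adjusted p under 0.05 by edgeR's quasi-likelihood test and a change of at least 2-fold. At 4M, 8 of 9 tested genes were upregulated (15.6% of all genes), and at 6M 9 of 9 (18.8%). No tested gene of the 10 had a lower estimate in *NOD.H-2b* at any age. *Ctla4*, *Il21*, *Tnfrsf9* and *Cd101* had few or no *BALB/c* counts (0, 0, 8 and 16 in total at 6M). They had enough counts for the test only through *NOD.H-2b* mice, as did *Cd226* at 2M, so their direction was fixed in advance. With at least 10 counts required in every sample, 3, 4 and 5 of the 10 genes were called at the 3 ages. Every *NOD.H-2b* mouse lay above every *BALB/c* mouse for 8 genes at 2M, for 9 at 4M and for 9 at 6M, where 26.3%, 28.2% and 32.7% of all genes tested were separated in this direction. The 8 at 2M are of all 10 genes and include *Ctla4*, which was not tested and had 1 count in its lowest *NOD.H-2b* mouse. The tested genes had a median log2 fold change of 3.47, 3.56 and 3.38 at the 3 ages, while that of all genes was 0.01, 0 and 0. With genes at 0 counts in *BALB/c* set to their lower bound (*Il21* at 4M, *Ctla4* and *Il21* at 6M), the medians were again 3.56 and 3.38. *Il2* was the only one of the 10 that never entered the test.

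**Figure D1:**
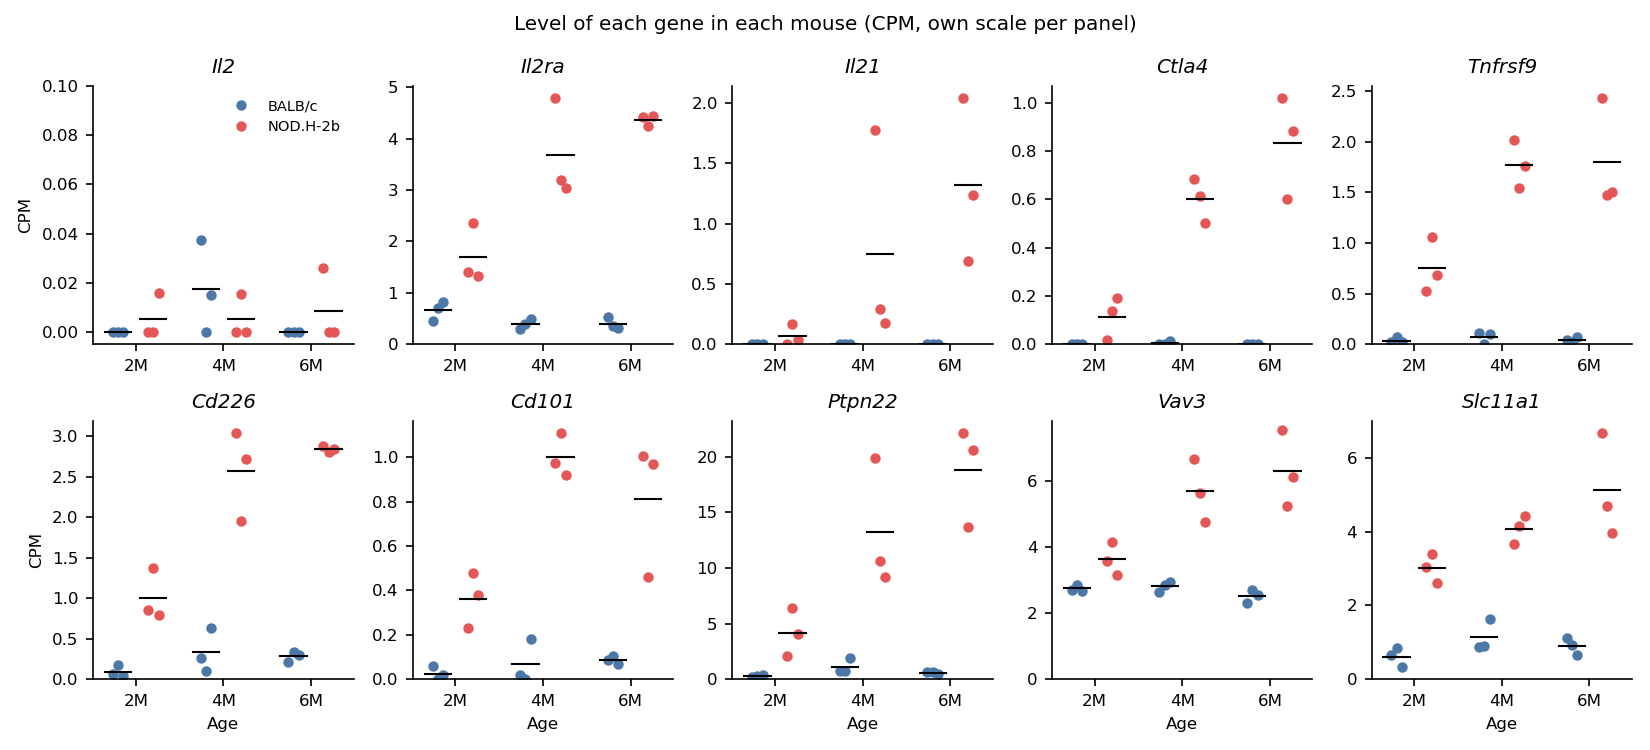
CPM of each gene (vertical axis, own scale per panel) in each mouse at 2M, 4M and 6M; points are mice, blue for *BALB/c* and red for *NOD.H-2b*, and bars are means of 3. For all genes but *Il2* the 3 *NOD.H-2b* mice lie above the 3 *BALB/c* mice at 4M and 6M, and *Vav3* alone lies above 2 CPM in every *BALB/c* mouse (2.31 to 2.93 CPM).

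The cytokine pair differed within these glands. *Il2* was counted at most 2 times in any library: replicates 1, 2 and 3 held 0, 0 and 0 counts in *BALB/c* and 0, 0 and 1 in *NOD.H-2b* at 2M, 2, 0 and 1 against 0, 1 and 0 at 4M, and 0, 0 and 0 against 2, 0 and 0 at 6M. The strains overlapped at every age, and a difference was not detectable at this depth. *Il21* had 0 counts in all 9 *BALB/c* mice. In *NOD.H-2b* it had 0, 11 and 2 counts at 2M, 117, 19 and 9 at 4M and 156, 39 and 70 at 6M. Replicate 1 of 4M and replicate 1 of 6M thus held most of the *Il21* counts of their groups.

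With a floor of 3 counts per library set for *BALB/c*, the mean *Il21* level of *NOD.H-2b* gave a bound of 1.23-fold at 2M, 13.9-fold at 4M and 24.2-fold at 6M. At 2M the strains overlapped, and replicates 1 and 3 of *NOD.H-2b* lay under the floor with 0 and 2 counts. No strain difference is read from the 2M bound, and *Il21* was not tested at that age. At 4M the adjusted p was 0.0595, so that the gene was not called, and it was called at 6M (adjusted p = 0.000161). The 4M result turned on single mice: without *NOD.H-2b* 4M replicate 1 the adjusted p was 0.00289, and without *NOD.H-2b* 4M replicate 3 it was 0.0455. DESeq2 and 1 fit of all 18 mice also called it at 4M.

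*Il2ra* was present in both strains. In *BALB/c* its levels were 0.457, 0.714 and 0.824 CPM at 2M, 0.298, 0.385 and 0.494 CPM at 4M and 0.536, 0.355 and 0.321 CPM at 6M. In *NOD.H-2b* they were 1.40, 2.35 and 1.33 CPM, then 4.80, 3.19 and 3.04 CPM, then 4.43, 4.24 and 4.44 CPM. The groups did not overlap at any age, and the 3 oldest *NOD.H-2b* mice were close to each other. *Il2ra* was upregulated 2.58-fold at 2M (log2 fold change 1.37, SE 0.31, adjusted p = 0.00419), 9.33-fold at 4M (3.22, SE 0.29, adjusted p = 2.58e-05) and 10.4-fold at 6M (3.38, SE 0.22, adjusted p = 1.5e-06).

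Among the receptors that restrain or boost T cells, *Ctla4* was nearly absent from *BALB/c*, with 1 count in replicate 3 at 4M and 0 in the other 8 mice. In *NOD.H-2b* it had 1, 9 and 12 counts at 2M, 45, 40 and 25 at 4M and 78, 34 and 50 at 6M. *Ctla4* was not tested at 2M, where the floor gave a mean level at least 2.11-fold higher, although replicate 1 with its 1 count lay under the floor. It was upregulated at 4M (adjusted p = 0.000102), with a ratio of normalised counts of 103 whose 95% counting interval runs from 18.2 to 4120. The call at 6M (adjusted p = 5.51e-05) came with a level at least 15.3-fold higher.

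*Tnfrsf9* levels in *BALB/c* were 0.0191, 0.0714 and 0.0175 CPM at 2M, 0.112, 0 and 0.105 CPM at 4M and 0.0429, 0.0209 and 0.0687 CPM at 6M. In *NOD.H-2b* they were 0.528, 1.06 and 0.680 CPM, then 2.02, 1.54 and 1.76 CPM, then 2.43, 1.47 and 1.5 CPM. All *NOD.H-2b* mice exceeded all *BALB/c* mice of their age. The change was 20.2-fold at 2M (log2 fold change 4.33, SE 0.56, adjusted p = 0.000105), 23.1-fold at 4M (4.53, SE 0.52, adjusted p = 0.000121) and 40.1-fold at 6M (5.33, SE 0.43, adjusted p = 5.65e-06).

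*Cd226*, whose product binds nectin family ligands on target cells, measured 0.0571, 0.179 and 0.0350 CPM in *BALB/c* at 2M, 0.261, 0.101 and 0.628 CPM at 4M and 0.214, 0.334 and 0.298 CPM at 6M. The *NOD.H-2b* mice measured 0.858, 1.37 and 0.791 CPM, then 3.04, 1.96 and 2.72 CPM, then 2.87, 2.80 and 2.84 CPM. The highest *BALB/c* value was that of 4M replicate 3, and it still lay below the lowest *NOD.H-2b* value. The changes were 11.1-fold at 2M (log2 fold change 3.47, SE 0.50, adjusted p = 0.00024), 7.51-fold at 4M (2.91, SE 0.50, adjusted p = 0.00197) and 10.4-fold at 6M (3.37, SE 0.25, adjusted p = 2.7e-06).

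*Cd101* was sparse in *BALB/c*, with 0.0571, 0 and 0.0175 CPM at 2M, 0.0186, 0 and 0.180 CPM at 4M and 0.0858, 0.104 and 0.0687 CPM at 6M. In *NOD.H-2b* it measured 0.231, 0.477 and 0.380 CPM at 2M, 0.972, 1.11 and 0.921 CPM at 4M and 1.01, 0.461 and 0.970 CPM at 6M. The groups were apart at each age, although 6M replicate 2 was lower than the other 6M mice. The gene was upregulated 14.1-fold at 2M (log2 fold change 3.82, SE 0.72, adjusted p = 0.00139), 13.4-fold at 4M (3.74, SE 0.71, adjusted p = 0.00252) and 9.28-fold at 6M (3.21, SE 0.45, adjusted p = 0.000224).

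Of the signalling genes, *Ptpn22* had the higher fold changes and *Vav3* the higher level in *BALB/c*. *Ptpn22* measured 0.209, 0.304 and 0.350 CPM in *BALB/c* at 2M, 0.726, 0.729 and 1.87 CPM at 4M and 0.665, 0.647 and 0.435 CPM at 6M. In *NOD.H-2b* it measured 2.06, 6.37 and 4.03 CPM, then 19.9, 10.7 and 9.23 CPM, then 22.1, 13.7 and 20.6 CPM. The spread within *NOD.H-2b* was wide, and the lowest mouse at 2M and the highest at 4M were also those with the lowest (5.31 CPM) and highest (79.8 CPM) summed T cell markers of their groups. The strain change was 14.6-fold at 2M (log2 fold change 3.86, SE 0.48, adjusted p = 0.000513), 11.8-fold at 4M (3.56, SE 0.53, adjusted p = 0.00364) and 31.6-fold at 6M (4.98, SE 0.24, adjusted p = 5.26e-07).

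*Vav3* was expressed in every *BALB/c* mouse, at 2.70, 2.86 and 2.66 CPM at 2M, 2.64, 2.83 and 2.93 CPM at 4M and 2.31, 2.69 and 2.54 CPM at 6M. In *NOD.H-2b* it measured 3.58, 4.14 and 3.15 CPM, then 6.65, 5.62 and 4.76 CPM, then 7.55, 5.23 and 6.12 CPM. The strains did not overlap, but the gap at 2M was small: 1.34-fold (log2 fold change 0.43, SE 0.15, adjusted p = 0.0416), under the 2-fold threshold. *Vav3* was called upregulated at 4M (1.03, SE 0.16, adjusted p = 0.000763) and at 6M (1.34, SE 0.17, adjusted p = 0.000112). The call at 4M sits at the threshold and was lost on fold change without *BALB/c* 4M replicate 1 (0.97) or *NOD.H-2b* 4M replicate 1 (0.90).

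*Slc11a1*, the phagosome transporter, measured 0.648, 0.857 and 0.315 CPM in *BALB/c* at 2M, 0.875, 0.891 and 1.63 CPM at 4M and 1.10, 0.918 and 0.664 CPM at 6M. In *NOD.H-2b* it measured 3.04, 3.40 and 2.62 CPM, then 3.66, 4.16 and 4.42 CPM, then 6.70, 4.72 and 3.97 CPM. The groups stayed apart at all ages, and *NOD.H-2b* 6M replicate 1 was the highest mouse. The change was 5.06-fold at 2M (log2 fold change 2.34, SE 0.30, adjusted p = 0.000118), 3.59-fold at 4M (1.84, SE 0.26, adjusted p = 0.000357) and 5.65-fold at 6M (2.50, SE 0.26, adjusted p = 2.68e-05).

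**Figure D2:**
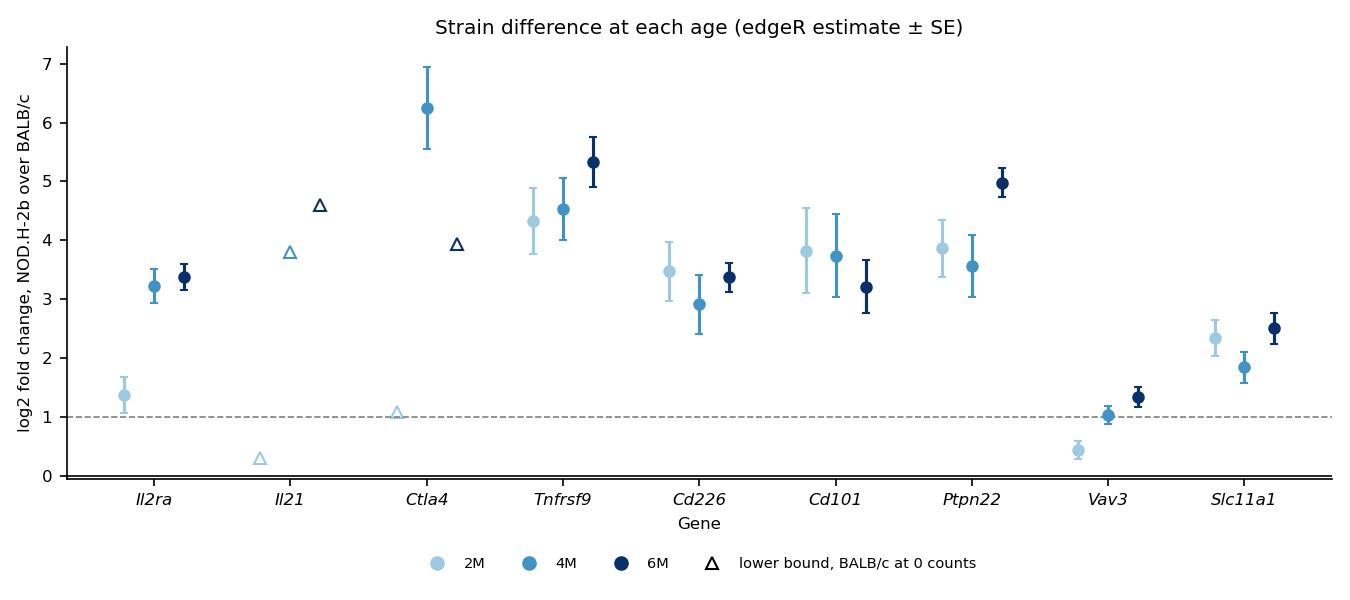
log2 fold change of *NOD.H-2b* over *BALB/c* (vertical axis) for 9 genes at 2M, 4M and 6M (points with bars are edgeR estimates ± SE from 3 mice a group, open triangles are lower bounds where all *BALB/c* mice had 0 counts, and the dashed line marks 2-fold). All estimates lie above 0, and *Vav3* runs from 0.43 to 1.34 and *Tnfrsf9* reaches 5.33. For *Il21* at 2M the mice of the strains overlapped.

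Levels per kb of exon, which allow genes to be compared, changed their order between strains. In *NOD.H-2b* at 6M, *Ptpn22* came first with a mean of 2.77 CPM per kb (range 2.02 to 3.27), above *Slc11a1* with 1.38 (1.07 to 1.81) and clear of its range. *Slc11a1* overlapped *Vav3* (1.05 CPM per kb). Next came *Il2ra* (0.765 CPM per kb), *Tnfrsf9* (0.661) and *Cd226* (0.580), of which each overlapped its neighbour in the order. *Ctla4* (0.358 CPM per kb), *Il21* (0.251) and *Cd101* (0.244) formed a lower run of overlapping neighbours, and *Il2* stood last at 0.00761 CPM per kb. In *BALB/c* at 6M the order began with *Vav3* (0.418 CPM per kb, range 0.384 to 0.448) and *Slc11a1* (0.242, 0.179 to 0.298), which did not overlap, while *Ptpn22* had 0.0859 CPM per kb and overlapped *Il2ra* (0.0707).

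**Figure D3:**
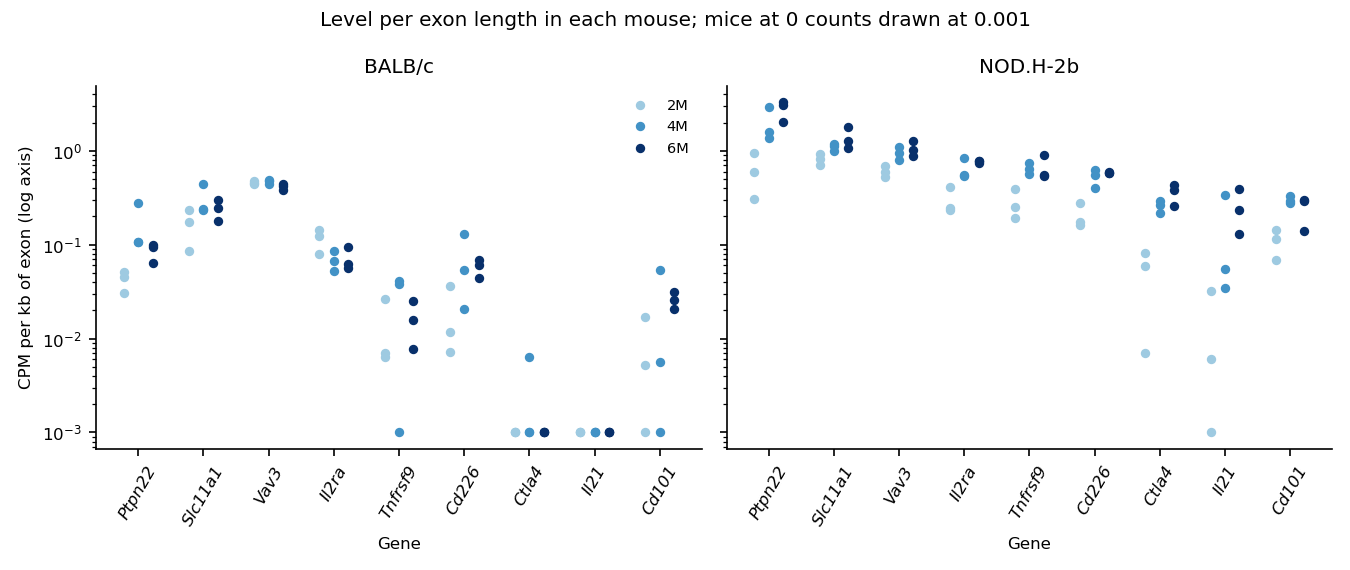
CPM per kb of exon (log axis) of 9 genes in each mouse, *BALB/c* on the left and *NOD.H-2b* on the right, shaded by age, with mice at 0 counts drawn at the bottom. *Ptpn22* leads in *NOD.H-2b* at 6M (2.02 to 3.27 CPM per kb), *Vav3* in *BALB/c* (0.384 to 0.448).

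Changes with age were read within each strain, and age and disease stage cannot be told apart in *NOD.H-2b*. In *NOD.H-2b*, 5 of 9 tested genes rose from 2M to 4M (*Ctla4*, *Il2ra*, *Cd101*, *Cd226* and *Tnfrsf9*), against 5.97% of all genes tested. DESeq2 called 7, and all 9 had an unadjusted p under 0.05. *Ctla4* and *Il21* had few counts at 2M and entered the test only through the older mice. The changes were 5.16-fold for *Ctla4* (log2 fold change 2.37, SE 0.57, adjusted p = 0.0273), 2.76-fold for *Cd101* (1.47, SE 0.32, adjusted p = 0.0216), 2.57-fold for *Cd226* (1.36, SE 0.28, adjusted p = 0.017), 2.35-fold for *Tnfrsf9* (1.23, SE 0.29, adjusted p = 0.0261) and 2.18-fold for *Il2ra* (1.13, SE 0.28, adjusted p = 0.03). *Vav3* passed the p threshold at 1.58-fold only (adjusted p = 0.0333). *Il21* (log2 fold change 3.45, SE 1.3, adjusted p = 0.131), *Ptpn22* (1.68, SE 0.52, adjusted p = 0.0929) and *Slc11a1* (0.44, SE 0.16, adjusted p = 0.0873) did not pass. This step depended on single mice: 0 genes were called without *NOD.H-2b* 2M replicate 3, 1 without *NOD.H-2b* 2M replicate 1, 2 without *NOD.H-2b* 4M replicate 1 and 2 without *NOD.H-2b* 4M replicate 2. *Ctla4* was also lost without *NOD.H-2b* 2M replicate 2 (adjusted p = 0.0511). The 2M mice differed in T cell markers, with 5.31, 20.4 and 12.3 CPM in replicates 1, 2 and 3, and those of 4M had 79.8, 47.1 and 43.6 CPM.

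From 2M to 6M, 7 of 9 tested genes rose in *NOD.H-2b*, against 10.9% of all genes. DESeq2 also called 7, and all 9 had an unadjusted p under 0.05. The genes called by edgeR were *Il21* (18.7-fold, log2 fold change 4.23, SE 0.82, adjusted p = 0.00782), *Ctla4* (7.03-fold, 2.81, SE 0.55, adjusted p = 0.00456), *Ptpn22* (4.46-fold, 2.16, SE 0.46, adjusted p = 0.0203), *Cd226* (2.78-fold, 1.48, SE 0.23, adjusted p = 0.00201), *Il2ra* (2.54-fold, 1.35, SE 0.22, adjusted p = 0.00234), *Tnfrsf9* (2.35-fold, 1.23, SE 0.32, adjusted p = 0.0146) and *Cd101* (2.21-fold, 1.14, SE 0.40, adjusted p = 0.0454). *Vav3* (1.72-fold, adjusted p = 0.00635) and *Slc11a1* (1.68-fold, adjusted p = 0.0173) changed by less than 2-fold. Leaving out *NOD.H-2b* 2M replicate 3 or 6M replicate 1 left 4 calls. *Cd101* was lost without *NOD.H-2b* 2M replicate 1, 2M replicate 3, 6M replicate 1 or 6M replicate 3 (adjusted p 0.101 to 0.139), *Ptpn22* without 2M replicate 3, 6M replicate 1 or 6M replicate 3 (0.0591 to 0.0758) and *Tnfrsf9* without 2M replicate 3 or 6M replicate 1 (0.0506 to 0.0572). The calls of *Il21*, *Ctla4*, *Cd226* and *Il2ra* held whichever mouse was left out.

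Between 4M and 6M, edgeR called 0 of 9 genes in *NOD.H-2b*, 0 had an unadjusted p under 0.05 and DESeq2 also called 0, where 0.00555% of all genes rose. The estimates lay between -0.29 for *Cd101* (SE 0.32) and 0.81 for *Il21* (SE 0.84) on the log2 scale. In *BALB/c*, 1 of 4 tested genes rose from 2M to 4M, against 2.07% of all genes: *Ptpn22*, 3.84-fold (log2 fold change 1.94, SE 0.43, adjusted p = 0.0128). This call was lost without *BALB/c* 4M replicate 3 (adjusted p = 0.0578), without 2M replicate 1 (0.0594) and without 2M replicate 2 (0.0543). *BALB/c* 4M replicate 3 was the highest of its group for 7 of the 10 genes and had T cell markers of 3.52 CPM, against 1.19 and 0.769 CPM in the other mice of the group. From 2M to 6M in *BALB/c* edgeR and DESeq2 called 0 of 5 genes, with 2 at an unadjusted p under 0.05, and from 4M to 6M both called 0 of 5, with 1 at that level, while 1.57% and 0.0180% of all genes rose.

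The change of the strain difference from 2M to 6M was tested as an interaction across the 18 mice. It was called for 2 of the 7 genes with an estimate, both with a larger strain difference at 6M, against 7.04% of all genes. For *Il2ra* the log2 difference grew by 2.03 (SE 0.40, adjusted p = 0.00407), made up of a rise of 1.35 in *NOD.H-2b* and an estimate of -0.68 (SE 0.36, adjusted p = 0.306) in *BALB/c*. For *Vav3* it grew by 0.92 (SE 0.22, adjusted p = 0.0108), with 0.78 in *NOD.H-2b* and -0.12 (SE 0.15) in *BALB/c*. The estimates for *Ptpn22* (1.14, SE 0.80, adjusted p = 0.36), *Tnfrsf9* (1.00, SE 1.0), *Slc11a1* (0.17, SE 0.43), *Cd226* (-0.09, SE 0.61) and *Cd101* (-0.60, SE 1.1) did not pass, and their errors leave room for sizeable changes. *Ctla4* and *Il21* gave no estimate because *BALB/c* had 0 counts at both ages, and *Il2* did not enter the fit.

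The genes were then set against cell type markers as the difference between a gene and the mean of a list, both as log2 of CPM plus 0.1. Only *NOD.H-2b* mice are described for T cells, since in *BALB/c* those markers lay near the added 0.1. *Ptpn22* lay above the T cell mean at every age: 1.32 ± 0.11 (SD, n = 3) at 2M, 0.79 ± 0.11 at 4M and 1.28 ± 0.14 at 6M. The 4M mice (0.70 to 0.92) lay below those of 2M (1.25 to 1.44) and 6M (1.12 to 1.36), and did so with either constant. With 0.5 added in place of 0.1 the means were 1.09, 0.76 and 1.22, so that the order of 2M and 6M turned. For *Il21* and *Ctla4* no change with age is read from this measure, because their few counts at 2M leave the value to the added constant. The mean of *Il21* at 2M, 4M and 6M was -3.34, -3.62 and -2.54 with 0.1 added and -1.84, -2.85 and -2.22 with 0.5 added, and that of *Ctla4* was -2.95, -3.39 and -3.06 against -1.73, -2.81 and -2.61. *Cd101* lay at -1.78 ± 0.49, -2.73 ± 0.50 and -3.13 ± 0.32, and its 2M and 4M mice did not overlap with either constant. *Il2ra* lay at 0.17 ± 0.65, -0.97 ± 0.12 and -0.77 ± 0.20, also without overlap between 2M and the later ages with either. Lower means after 2M were shared by *Cd226* (-0.52, -1.47 and -1.38), *Tnfrsf9* (-0.90, -1.96 and -2.04), *Vav3* (1.26, -0.34 and -0.27) and *Slc11a1* (1.00, -0.80 and -0.58). For each of these genes the 2M mice lay above those of the later ages with either constant. The cause was not tested. In the oldest group, replicate 1 was the highest mouse for 9 of the 10 genes and replicate 2 the lowest for 8, with T cell markers of 68.7 and 50 CPM.

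*Slc11a1* kept close to macrophage markers in both strains. Its difference to their mean was -3.43 ± 0.41 (SD, n = 3) in *BALB/c* against -2.95 ± 0.22 for *NOD.H-2b* at 2M, -3.23 ± 0.11 and -2.95 ± 0.18 at 4M, and -3.26 ± 0.33 and -2.74 ± 0.18 at 6M, with overlapping mice at every age. With 0.5 added the strain means differed by 0.02, 0.02 and 0.18 at the 3 ages, again with overlap. Across the 18 mice, which also differ in strain and age, the correlation of *Slc11a1* with the macrophage mean was r = 0.984, and within groups (deviations from the 6 group means) it was 0.785. For *Ptpn22* and the T cell mean these values were 0.991 and 0.901, and for *Ctla4* and the B cell mean 0.990 and 0.849. These are the highest lists of each gene, and other lists were also high. The values were 0.961 and 0.705 for *Ctla4* with T cells, 0.960 and 0.860 for *Ptpn22* with NK cells, and 0.955 and 0.586 for *Slc11a1* with NK cells. Within groups, every gene in the fit of all mice had a negative r with the gland epithelium mean. The values ran from -0.029 for *Slc11a1* to -0.631 for *Ptpn22*, -0.781 for *Vav3* and -0.930 for *Il21*. These correlations share libraries and group differences and are given as descriptions.

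**Figure D4:**
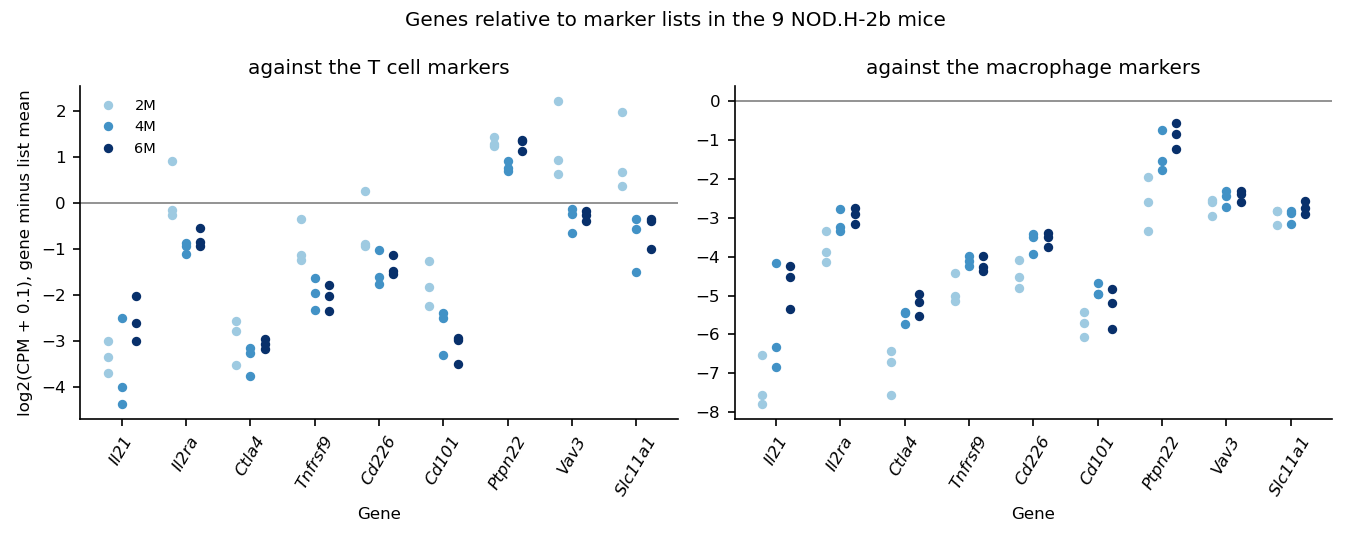
Difference of each gene to the mean of the T cell (left) and macrophage (right) markers, in log2 of CPM plus 0.1 (vertical axis), for the 9 *NOD.H-2b* mice, shaded by age. *Ptpn22* stays between 0.70 and 1.44 above the T cell mean, and *Slc11a1* between -3.20 and -2.56 against the macrophage mean, while the 2M points of *Il21* and *Ctla4* depend on the added constant.

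Among themselves, the 9 genes in the fit of all mice correlated with r = 0.776 (*Il21* and *Slc11a1*) to 0.968 (*Ptpn22* and *Cd226*) over 36 pairs and 18 mice. Within groups, the range widened to 0.037 (*Il21* and *Slc11a1*) to 0.807 (*Il21* and *Vav3*). Among genes whose average log2 CPM reached 0, those most like each gene over the 18 mice were *Tnfrsf13c* (r = 0.997), *Fcmr* (0.993) and *Cxcr5* (0.992) for *Ctla4*, *Itga4* (0.997), *Ipcef1* (0.996) and *Acap1* (0.996) for *Ptpn22*, and *Cd180* (0.984), *Fcer1g* (0.984) and *C3ar1* (0.983) for *Slc11a1*. *Cd101* was most like *Cd3g* (0.978), *Zap70* (0.976) and *Cd4* (0.976), *Cd226* like *Cd44* (0.991), *A130071D04Rik* (0.989) and *Pirb* (0.987), and *Tnfrsf9* like *Ms4a4c* (0.993) and *Trim30a* (0.988). *Il21* was most like *Celf2* (0.991), *Uvrag* (0.988) and *Cd47* (0.986), *Vav3* like *Sema4d* (0.984), *Tmem131l* (0.984) and *4930523C07Rik* (0.983), and *Il2ra* like *Inpp1* (0.982), *Slc4a8* (0.977) and *Gm8979* (0.975). Within groups the leading gene was again *Tnfrsf13c* for *Ctla4* (0.930), *Celf2* for *Il21* (0.963) and *Ms4a4c* for *Tnfrsf9* (0.892), and *C3ar1* (0.938) led for *Slc11a1* and *Acap1* (0.959) for *Ptpn22*.

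The surrounding pathways were read from 7 lists of 97 genes, of which 91 were tested at 6M. Among them, 62 were called higher and 2 called lower in *NOD.H-2b*, against 18.8% and 6.03% of all genes. Genes near 0 counts in *BALB/c* could enter this test only if higher in *NOD.H-2b*. With at least 10 counts required in every sample, 35 pathway genes were called. The median log2 fold change was 3.51, or 3.45 with genes at 0 counts in *BALB/c* set to their bound, against 0 for all genes. Around the cytokines, 11 of 20 tested genes of the common gamma chain list were higher, led by *Foxp3*, the regulatory T cell factor (log2 fold change 7.68, SE 0.46), *Il21r*, the IL-21 receptor (7.54, SE 0.31), and *Il2rb*, the IL-2 receptor beta chain (5.26, SE 0.22). *Il15ra*, the gene after *Il2ra* on the chromosome, stayed within 2-fold (-0.28, SE 0.09), as did the kinase gene *Jak1* (0.14, SE 0.074) and *Stat5a* (0.20, SE 0.10).

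All 12 genes of the CTLA-4 and CD28 family list were higher. The largest estimates were those of *Icos*, a costimulatory receptor, and of the inhibitory receptors *Btla* (log2 fold change 7.48, SE 0.51) and *Pdcd1* (6.39, SE 0.38). *Icos* had 0 counts in *BALB/c* against 182, at least 17.6-fold higher. In the TNF receptor list 7 of 8 were higher, among them *Cd40* (7.47, SE 0.46) and *Tnfrsf18*, which encodes GITR (6.83, SE 0.45). *Cd40lg*, the CD40 ligand of helper T cells, had 1 count against 174, a ratio of 170 (95% counting interval 30 to 6740). In the CD226 list the genes called at 6M were the lymphocyte receptors *Crtam* (6.42, SE 0.50), *Cd96* (5.58, SE 0.44), *Tigit* (5.29, SE 0.67) and *Pvrig* (4.71, SE 0.47), 4 of 10, while the ligand genes stayed within 2-fold at that age, from -0.69 for *Nectin2* (SE 0.10) and *Nectin4* (SE 0.092) to 0.93 for *Nectin3* (SE 0.26) and *Cadm1* (SE 0.15). At 2M *Nectin3* was called higher (1.05, SE 0.19, adjusted p = 0.00101).

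In the list of antigen receptor signalling around PTPN22 and VAV3, 16 of 20 genes were higher. *Ubash3a* led with 3 counts against 743, a ratio of 241 (95% counting interval 82.3 to 1170), before the kinase gene *Lck* (log2 fold change 6.17, SE 0.27). The other Vav genes differed, with *Vav1* upregulated (3.94, SE 0.19) and *Vav2* within 2-fold (0.59, SE 0.091). Around SLC11A1, 6 of 14 genes were higher, all of them subunits of the phagocyte oxidase or *Nos2*, the inducible nitric oxide synthase. *Nos2* had 2 counts against 68, a ratio of 33.1 (95% counting interval 8.83 to 279), and the log2 fold change was 4.02 (SE 0.24) for *Ncf1* and 3.99 (SE 0.21) for *Ncf4*. The iron exporter gene *Slc40a1* was lower (-1.59, SE 0.36, adjusted p = 0.00388), and *Slc11a2*, the paralog of *Slc11a1*, had an estimate of -0.45 (SE 0.11). Among 7 other candidates of NOD loci, 6 were higher, among them *Alox15* (4.54, SE 0.47), *Fcgr1* (4.00, SE 0.36) and *Tnfrsf8*, with 0 counts against 72 and a level at least 6.77-fold higher, and the clock gene *Arntl2* was lower (-1.32, SE 0.20, adjusted p = 0.00036).

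**Figure D5:**
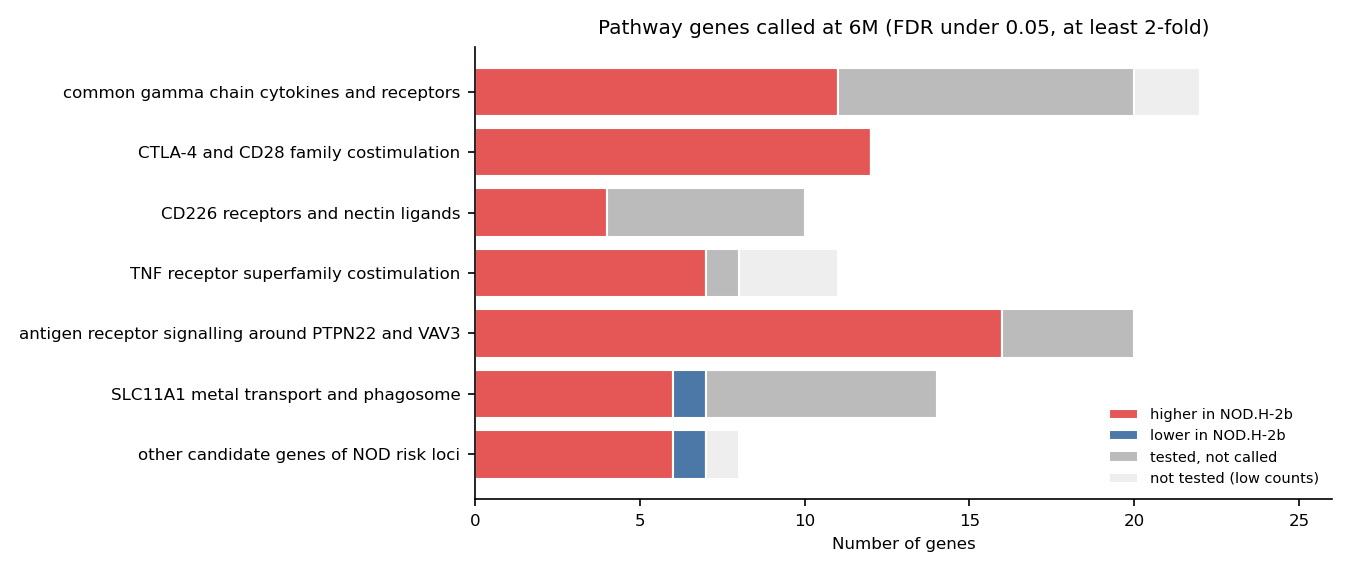
Number of genes (horizontal axis) of each pathway list that were higher, lower, tested but not called, or not tested at 6M. Upregulated genes fill the CTLA-4 and CD28 list (12 of 12) and make up 4 of 10 in the CD226 list, and 1 gene each is lower in the SLC11A1 list and the list of other candidates.

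Because risk loci are defined by position, the nearest tested protein-coding genes on either side of each of the 10 were also read. Of 18 such neighbours outside the set, 4 were higher, 1 lower and 13 not called at 6M, shares near the 18.8% and 6.03% of all genes, so the called neighbours are listed as a description. The higher ones were *Cd28* (3 counts against 128, a ratio of 41.6 with a 95% counting interval of 13.9 to 204) and *Icos* beside *Ctla4*, *Bcl2l15* beside *Ptpn22* (log2 fold change 2.70, SE 0.50) and *Slc25a24* beside *Vav3* (1.21, SE 0.15). The lower one was the centrin gene *Cetn4*, 75.1 kb from *Il21*, with a mean of 0.546 CPM in *BALB/c* against 0.0394 CPM (-3.61, SE 0.56, adjusted p = 0.00039), and it was lower at 4M as well (-3.17, SE 0.58, adjusted p = 0.00172). *Ctdsp1*, 5.45 kb from *Slc11a1*, had an estimate of 0.00 (SE 0.064), *Rsbn1*, 1.87 kb from *Ptpn22*, of 0.11 (SE 0.10), *Park7*, 0.125 kb from *Tnfrsf9*, of -0.28 (SE 0.086) and *Ptgfrn*, 10.7 kb from *Cd101*, of 0.17 (SE 0.086). The 13 uncalled neighbours ran from -0.49 for *Per3* beside *Tnfrsf9* (SE 0.28, adjusted p = 0.19) to 0.95 for *Rttn* beside *Cd226* (SE 0.17, adjusted p = 0.00117). *Ptgfrn* had an estimate of 0.65 (SE 0.066) at 2M. At 4M *Ntng1*, 94.3 kb from *Vav3*, was lower (-1.28, SE 0.39), which was not the case at 6M (-0.13, SE 0.31).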

How the data were processed

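Total RNA of whole LGs was depleted of ribosomal RNA and sequenced as paired ends. Raw counts per Ensembl gene were deposited by the authors, who used cutadapt for trimming, STAR for alignment to GRCm38 and HTSeq for counting. The strand setting and annotation release are not given in the sources used here. A table of log2 values normalized by the authors was not used. Both strains can differ in sequence from the reference genome.

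Names and positions came from GENCODE M21 (54079 of 54232 genes). Each comparison of strains or of ages was fitted to its 6 mice with edgeR 4.0.16 in R 4.3.3 (TMM, filterByExpr, robust quasi-likelihood test, Benjamini-Hochberg adjustment over all genes tested), with a threshold of 0.05 and 2-fold. The interaction used all 18 mice and the p threshold alone. SEs were derived from the F statistic. CPM used TMM library sizes, a floor of 3 counts per library gave bounds, and the 95% interval of a count ratio is exact and covers counting error only. Alternatives were DESeq2 1.42.0 (size factors and Wald test), upper quartile scaling, no filter, at least 10 counts in every sample, 1 fit of 18 mice, a pseudocount of 0.5 in place of 0.1 CPM, the replicate block and leaving out each mouse.

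Scripts were first tested on simulated counts. The 10 genes, the lists and the tests were chosen with earlier results of these data known. Named genes are the 10, from each list the 3 with the largest change at 6M among those called plus any called lower, the 3 most correlated with each gene, and the nearest tested neighbours. Some genes that this rule names are not reported here. The choice of *Il15ra*, *Jak1*, *Stat5a*, *Vav1*, *Vav2*, *Slc11a2*, *Pvrig*, *Nectin2*, *Nectin3*, *Nectin4* and *Cadm1* came after their values were seen.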

Additional observations from a re-analysis of the deposited data

Results flagged for a closer look

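The strain difference changed between 2M and 6M for *Il2ra* and *Vav3*, by the test of the interaction itself. For *Il2ra* the change was 2.03 on the log2 scale (SE 0.40, adjusted p = 0.00407), and for *Vav3* it was 0.92 (SE 0.22, adjusted p = 0.0108). Both calls held in every alternative run, with changes of 1.79 to 2.33 for *Il2ra* and 0.76 to 1.04 for *Vav3*. Groups of 3 mice are too small for the check of single outlying mice.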

How the results depend on the processing

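Requiring at least 10 counts in every sample, which removes genes near 0 in *BALB/c*, left 3, 4 and 5 of the 10 genes called between strains at 2M, 4M and 6M and 35 pathway genes at 6M (64 otherwise). Without a filter 2 genes were called from 2M to 4M in *BALB/c*. Leaving out each mouse gave 6 to 6, 7 to 9 and 9 to 9 calls between strains at 2M, 4M and 6M, 64 to 66 pathway genes, 0 to 1 calls from 2M to 4M in *BALB/c*, 0 to 5 from 2M to 4M and 4 to 7 from 2M to 6M in *NOD.H-2b*, and 2 to 2 interactions.

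Of 963 alternatives of single values of the 10 genes, 900 kept their direction and side of the threshold, 40 were lost, 7 were gained and 16 changed sign, all of them by leaving out a mouse and none of them of a called value. From 4M to 6M in *BALB/c* these were *Il2ra* (-0.09 and -0.2, range -0.2 to 0.29), *Slc11a1* (range -0.5 to 0.05) and *Cd226* (-0.68 to 0.61), and from 2M to 4M *Vav3* (-0.01 to 0.07). From 4M to 6M in *NOD.H-2b* they were *Cd226* (-0.02 to 0.27), *Tnfrsf9* (-0.06 and -0.26, range -0.26 to 0.15) and *Vav3* (-0.01 to 0.27), and in the interaction *Cd226* (0.08, 0.25, 0.19 and 0.01, range -1.1 to 0.25) and *Slc11a1* (-0.22, -0.04 and -0.08, range -0.22 to 0.43). The cause of these changes was not tested.

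With the replicate number as a block, 0 genes were called from 2M to 4M (5 without it) and 3 from 2M to 6M (7 without it) in *NOD.H-2b*, 9 between strains at 4M (8 without it), and the other counts of calls did not change. Same-numbered mice correlated between -0.426 and 0.439 over 27 pairs. The labels give these mice a shared number only, and with 3 mice per group the correlations cannot decide whether they also shared a handling step. Depth limits *Il2*, and *Ctla4* and *Il21* in *BALB/c*.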
